A study of Mus musculus with 40 samples.

Results

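The cells compared here are single Pachytene spermatocytes of the mouse testis with a high or a low transcript level of Aurka, which encodes the M phase kinase Aurora A. Of the 40 single-cell libraries of the series, 20 are named Pachytene and 20 Metaphase I, and 16 of the 20 Pachytene cells were kept. The level of a gene in a cell is its CPM, the count divided by the total count of that cell and multiplied by 1000000. Cells with 100 CPM or more of Acrv1, a gene of the spermatid acrosome, or 1000 CPM or more of Clu, a gene abundant in Sertoli cells, were left out. Kept cells with 400 CPM of Aurka or more are called Aurka-high, and those under 300 CPM Aurka-low. This gave 9 Aurka-high cells (Pachytene replicates 1, 4, 6, 8, 9, 11, 12, 15 and 20) and 7 Aurka-low cells (replicates 5, 10, 13, 14, 16, 17 and 18), with 0 cells between the thresholds. The other 4 Pachytene cells (replicates 2, 3, 7 and 19) passed the Acrv1 limit.

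All libraries come from testes of C57BL/6J mice aged 6 to 8 weeks, with no genotype or allele named. Spermatocytes were separated by centrifugal elutriation, which sorts cells by how fast they sediment. A single protocol text, which stands on all 40 libraries, describes culture with 4 µM okadaic acid, an inhibitor of the phosphatases PP1 and PP2A, for 5 h to drive the cells towards metaphase I. The sources used here do not state whether Pachytene cells were cultured or received the drug. Libraries followed a modified STRT-seq method that keeps the 3′ ends of transcripts, so levels are not compared between genes. The labels name no animal or culture. The cells of a group are therefore 1 sample, both sides are cells of the same labelled group, and the sides were chosen by a measured level. Differences between them are described and not tested, and no p-value is given.

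In the first meiotic prophase, homologous chromosomes break, pair and recombine along the synaptonemal complex, a protein ladder that is complete at pachytene. Pachytene lasts for days in the mouse, and the transcripts for the first meiotic division build up towards its end and in diplotene. Entry into division depends on CDK1 with cyclin B, on Polo-like kinase 1 and on the Aurora kinases. Aurora A acts at the spindle poles, and Aurora B and the germ cell form Aurora C act at chromosomes and centromeres together with INCENP, survivin and borealin. Throughout pachytene the X and Y chromosomes are silenced, and many transcripts are stored for translation after meiosis.

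Totals ran from 460721 to 2283438 counts in the Aurka-high cells (median 778162) and from 165048 to 1105210 in the Aurka-low cells (median 720870). Thinned to 300000 counts per cell, the 9 Aurka-high cells held 8377 to 10353 detected genes (median 9757) and 6 Aurka-low cells 9363 to 10017 (median 9594.5). Aurka-low replicate 5 was too shallow to be thinned and stood apart. It had the lowest total of the kept cells, 7264 detected genes, 7.12% mitochondrial counts and 16.3% of its counts in its 10 most abundant genes, against at most 3.47% and 8.95% in the other Aurka-low cells. One count in this cell is about 6.06 CPM. Where leaving it out ends a 2-fold call or moves a ratio by over 1.5 times, the value without it is given too.

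Spermatocyte markers were present on both sides. Ldhc, the testis lactate dehydrogenase subunit, ran from 16527 to 22045 CPM in Aurka-high cells and from 12021 to 22367 CPM in Aurka-low cells. The chaperone gene Hspa2 ran from 1035 to 1488 CPM and from 799.8 to 1703 CPM, and Sycp3, of the chromosome axis, from 74.2 to 184 CPM and from 81.8 to 252 CPM. All 3 were detected in all 16 cells and their ranges overlapped. X-linked genes held 0.0276% to 0.0914% of counts in Aurka-high and 0.0262% to 0.121% in Aurka-low cells, against 0.741% to 1.19% in the 4 cells left out. Of 20 Sertoli markers 13, among them Sox9, Wt1 and Amh, had 0 counts in the 16 cells, and the list summed to 0 to 10.51 CPM and 0 to 3.58 CPM. Of 16 Leydig, peritubular, endothelial and blood markers 9 had 0 counts, with sums of 0 to 34.7 CPM and 0 to 12.1 CPM. Of 15 spermatogonia markers 5 had 0 counts, Stra8 among them, and the sums were 6.82 to 44.4 CPM in Aurka-high and 19.4 to 84.8 CPM in Aurka-low cells. Spermatid RNA was present at levels that differed by gene. The sperm mitochondrial capsule gene Smcp was detected in 6 of 9 Aurka-high cells (at most 91.9 CPM) and 3 of 7 Aurka-low cells (303 CPM in replicate 5, at most 56.9 CPM in the others), against 1910 CPM or more in the 4 cells left out. The transition protein gene Tnp1 went the same way, with at most 54.26 and 72.71 CPM against 138 CPM or more. For Odf1, Akap4 and Hmgb4 too, every kept cell lay below every cell left out. The transition protein gene Tnp2 and the protamine genes Prm1 and Prm2 instead had their highest values in kept cells. Their medians in Aurka-high cells were 11.57, 1.304 and 0 CPM. Tnp2 was detected in 9 of 9 Aurka-high and 3 of 7 Aurka-low cells and reached 108.5 and 133.3 CPM, against at most 40.26 CPM in the cells left out. Prm1 reached 108.5 and 145.4 CPM against at most 18.12 CPM, and Prm2 223.6 CPM (replicate 1) and 54.53 CPM against at most 35.88 CPM. The highest Aurka-low values of these 3 lay in replicate 5, and the next were at most 10.79 CPM.

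Aurka (chromosome 2, 172356190 to 172370535, GRCm38) chose the sides. Its levels in the Aurka-high cells were 538, 545, 581, 585, 590, 612, 802, 834 and 863 CPM, in the order of replicates 1, 6, 20, 4, 9, 8, 15, 11 and 12. In the Aurka-low cells they were 136, 138, 153, 153, 176, 263 and 273 CPM, in the order of replicates 18, 14, 16, 10, 17, 13 and 5. The values nearest the thresholds were thus 538 CPM in replicate 1 and 273 CPM in replicate 5, with none between them. For Acrv1 the highest kept values were 72.7 CPM in replicate 5 and 22.97 CPM in replicate 4, and the lowest value left out was 451 CPM in replicate 3. Clu reached at most 6.45 CPM in any Pachytene cell, so its limit removed none.

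Among the genes that accompany Aurka in the description of the split, Plk1 and Ccnb1 were higher and Dazl and Atf4 lower in Aurka-high cells. All 4 were picked with these data known, so their values are a description. Plk1, the Polo-like kinase of mitotic entry (chromosome 7, 122159439 to 122169873), had a lowest, median and highest level of 65.5, 138 and 305 CPM in Aurka-high cells and of 1.35, 5.55 and 21.5 CPM in Aurka-low cells. The sides did not overlap, and the mean was 18.3-fold higher with 1 CPM added to each mean. Over summed counts, 1335 against 37, the ratio was 19.6-fold with an exact interval of 14.1 to 27.9 that covers counting error only. Plk1 shares exon bases with Gm44985 on the opposite strand, and without a stated strand setting their counts cannot be told apart.

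Ccnb1, which encodes the cyclin B1 partner of CDK1 (chromosome 13, 100778650 to 100786570), had 35.9, 304 and 404 CPM in Aurka-high cells and 4.59, 12.7 and 188 CPM in Aurka-low cells. Here the sides overlapped, since replicate 5 had 188 CPM and the next Aurka-low cell, replicate 14, had 36.4 CPM. The log2 ratio of the means was 2.57, and 3.94 without replicate 5, when only the lowest Aurka-high cell, replicate 20, still lay within the Aurka-low range.

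Dazl, which encodes a germ cell protein that binds 3′ ends of mRNAs and promotes their translation (chromosome 17, 50279395 to 50293636), had 0, 6.18 and 30.0 CPM in Aurka-high cells and 21.5, 93.3 and 515 CPM in Aurka-low cells. Its log2 ratio was -3.93, and -3.18 without replicate 5, which held the 515 CPM. Aurka-high replicate 4 lay inside the Aurka-low range. Atf4, the transcription factor of the amino acid and endoplasmic reticulum stress response (chromosome 15, 80255184 to 80257541), had 7.45, 22.2 and 35.9 CPM in Aurka-high cells. Its Aurka-low levels were 0, 97.2 and 182 CPM. The 0 lay in replicate 5, and the other 6 cells had 74.9 CPM or more, so that without it the sides did not overlap and the log2 ratio was -2.48 instead of -2.26.

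**Figure D1:**
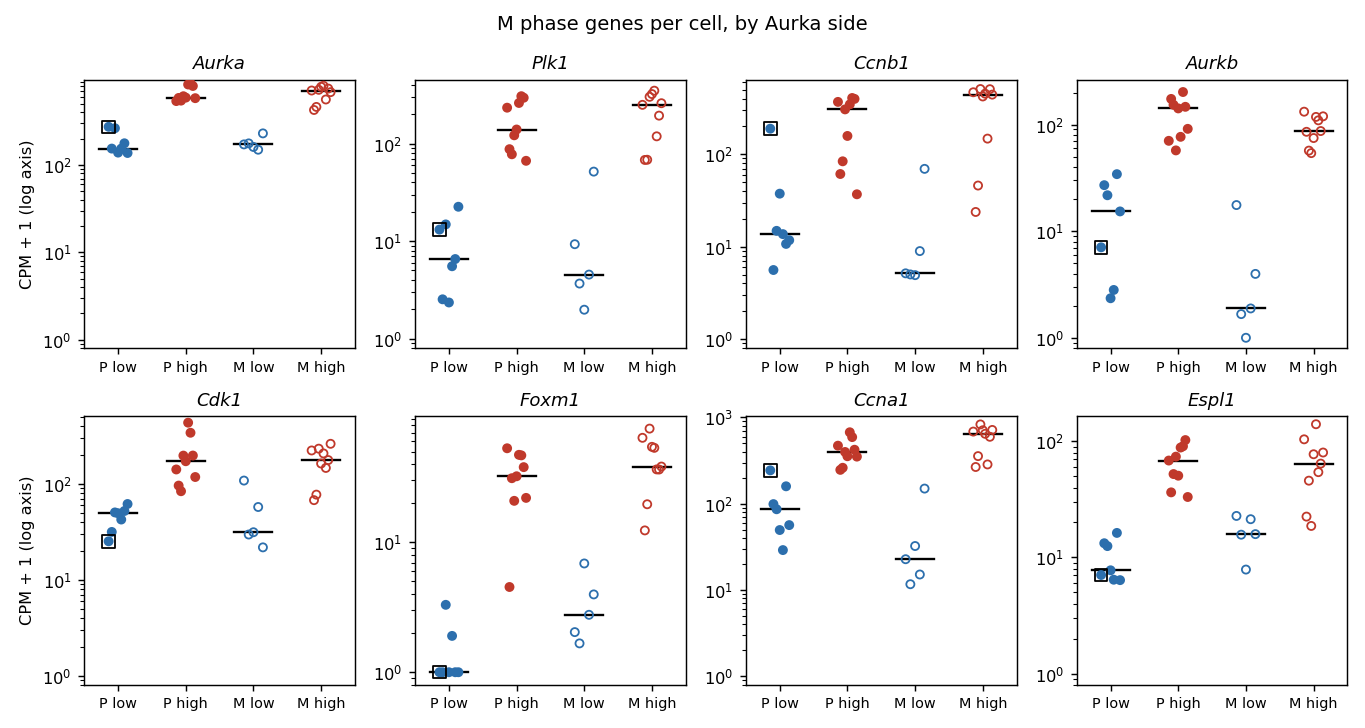
CPM + 1 per cell on a log axis for 8 M phase genes, in Aurka-low (blue) and Aurka-high (red) cells of Pachytene (P, filled) and Metaphase I (M, open), with black bars at medians and a square around Pachytene replicate 5. In Pachytene the sides of Aurka, Plk1, Aurkb, Cdk1, Foxm1, Ccna1 and Espl1 do not overlap, and those of Ccnb1 do, with replicate 5 at 188 CPM.

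Across the 7910 genes with 100 or more counts over the 16 cells, the log2 ratio of mean CPM (Aurka-high over Aurka-low, 1 CPM added to each mean) had a median of -0.035 and quartiles of -0.55 and 0.49. Over 2-fold higher in Aurka-high cells were 889 genes, 11.2% of those tested, and over 2-fold lower 973 genes, 12.3%. The sides did not overlap at all, meaning that the lowest cell of the higher side lay above the highest cell of the other, for 103 of the higher genes (1.3% of those tested) and 54 of the lower genes (0.683%). Without replicate 5 these were 885 (11.2%) and 920 (11.6%), of which 132 (1.67%) and 100 (1.26%) did not overlap. The 54 became 93 without replicate 13. The rule used these same cells, so the counts below are set beside these shares and nothing is read from an excess. A gene with few counts could be tested only through the side where it was higher. Fewer molecules of a transcript and fewer counts captured in a cell cannot be told apart.

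Aurora and polo kinases with their partners numbered 12 tested genes including Aurka, which chose the sides. Of the other 11, 5 were over 2-fold higher in Aurka-high cells and 0 lower, 2 had sides that did not overlap (Plk1 and Aurkb), and the median log2 ratio was 0.70. Aurkb, the centromere and midzone kinase Aurora B (chromosome 11, 69045647 to 69051664), had 56.3, 141 and 201 CPM in Aurka-high cells and 1.35, 14.3 and 33.3 CPM in Aurka-low cells, a log2 ratio of 2.97. Aurkc, the germ cell paralog, had 49.8, 76.0 and 171 CPM against 1.53, 28.7 and 66.7 CPM, and its sides overlapped (log2 ratio 1.57). Incenp, the scaffold of Aurora B and C, had 29.8, 98.3 and 224 CPM against 9.22, 25.3 and 188 CPM. Its top Aurka-low value was again replicate 5, and its log2 ratio was 1.00 with and 1.90 without that cell. Tpx2, which activates Aurora A on spindle microtubules, had a log2 ratio of 1.26.

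The other members lay within 2-fold. Haspin, the kinase that marks centromeric histone H3 for Aurora B, had 744, 955 and 1126 CPM in Aurka-high cells and 358, 522 and 854 CPM in Aurka-low cells. Birc5 (survivin) and Cdca8 (borealin), the partners of Aurora B, had log2 ratios of 0.65 and 0.70, with overlapping sides. Bora, the cofactor through which Aurora A activates PLK1, had 0.22, the centrosome scaffold gene Cep192 0.018 and the centriole kinase gene Plk4 -0.18.

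In the CDK1 and cyclin B list, 5 of 12 tested genes were over 2-fold higher and 2 lower, and the median was 0.51. Cdk1, the M phase kinase itself (chromosome 10, 69335146 to 69352938), had 83.2, 172 and 437 CPM in Aurka-high cells and 24.2, 48.6 and 60.9 CPM in Aurka-low cells. Its sides did not overlap (log2 ratio 2.15). Ccnb2, which encodes cyclin B2, was just within 2-fold at 431, 706 and 956 CPM against 230, 298 and 437 CPM. The CDK1-activating phosphatase genes Cdc25a and Cdc25c had log2 ratios of 1.69 and 2.16, with overlapping sides. Cdc25c was detected in 8 of 9 Aurka-high and 3 of 7 Aurka-low cells, with 138 and 8 summed counts, and its log2 ratio was 2.80 without replicate 5. The inhibitory kinase gene Wee1 had 1.03, or 0.95 without replicate 5 and so within 2-fold, and Pkmyt1 had -0.50.

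Lower in Aurka-high cells were Arpp19 and Cks1b. Arpp19, whose phosphorylated protein inhibits PP2A in M phase, had 11.6, 28.5 and 79.1 CPM in Aurka-high cells and 66.7, 124 and 167 CPM in Aurka-low cells. The log2 ratio was -1.64, and without replicate 5 the sides did not overlap. Cks1b, a small CDK-binding subunit, had -1.94, while its paralog Cks2 had -0.67. Ensa, the close relative of Arpp19, had -0.36 and Gtse1 0.032.

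Ccna1, which encodes the germ cell cyclin A1 needed for the division (chromosome 3, 55045469 to 55055501), had 246, 396 and 671 CPM in Aurka-high cells and 28.1, 85.3 and 242 CPM in Aurka-low cells. The sides were just apart, and without replicate 5 the highest Aurka-low value was 158 CPM (log2 ratio 2.02 with and 2.39 without it). It shares exon bases with 4931419H13Rik on the opposite strand. Ccne2, of the cyclin E family, was in the other direction at -2.33, and Cdk7, the CDK-activating kinase gene, had 1.89. These 3 were the members over 2-fold among 9 tested cyclin A, cyclin E and CDK2 genes, whose median log2 ratio was -0.012. Foxm1, a transcription factor of G2 and M phase genes (chromosome 6, 128362967 to 128376146), had the largest log2 ratio of the higher genes with sides apart and a mean of at least 20 CPM in Aurka-high cells. It had 3.53, 31.3 and 52.1 CPM in the 9 Aurka-high cells and 0, 0 and 2.31 CPM in the Aurka-low cells, where 2 of 7 cells held its 3 counts. Its ratio over summed counts was 47.9-fold, with a counting interval of 16.2 to 234. The 3.53 CPM lay in replicate 4 and the 2.31 CPM in replicate 13, each from a few counts. The sides were thus only just apart, and the other Aurka-high cells had 19.9 CPM or more. Foxm1 shares exon bases with Tex52 and Gm44596 on the same strand.

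Motifs in the promoters of these genes are shown because Foxm1 and several M phase genes were high in the same cells, and because the CHR element, TTTGAA, is a known site of the complex that represses and then activates G2 and M phase genes. The promoters shown were picked among those that hold the match, so they do not stand for the higher genes as a set. The sequences are from RefSeq on GRCm38.p6, in the direction of transcription, with the match in capitals. For Aurka (chr2:172370521-172370550, minus strand) and Plk1 (chr7:122159453-122159482, plus strand) the 30 bases around the match just after the start site are given. For Cdk1 (chr10:69352913-69353162, minus strand), Espl1 (chr15:102296043-102296292, plus strand) and Ckap2l (chr2:129297213-129297462, minus strand) the 250 bases before the start site are given.
Aurka: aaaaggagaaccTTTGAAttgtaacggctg
Plk1: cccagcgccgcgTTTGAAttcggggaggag
Cdk1: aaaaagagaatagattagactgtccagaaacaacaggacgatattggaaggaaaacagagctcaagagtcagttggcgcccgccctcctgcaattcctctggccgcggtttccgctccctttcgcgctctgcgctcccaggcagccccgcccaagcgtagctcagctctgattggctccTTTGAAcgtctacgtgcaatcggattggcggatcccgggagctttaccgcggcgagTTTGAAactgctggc
Espl1: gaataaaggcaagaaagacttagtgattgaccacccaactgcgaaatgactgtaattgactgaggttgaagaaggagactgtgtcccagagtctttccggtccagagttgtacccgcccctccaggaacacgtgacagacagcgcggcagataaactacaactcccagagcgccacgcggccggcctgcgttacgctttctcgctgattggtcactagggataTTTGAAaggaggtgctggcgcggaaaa
Ckap2l: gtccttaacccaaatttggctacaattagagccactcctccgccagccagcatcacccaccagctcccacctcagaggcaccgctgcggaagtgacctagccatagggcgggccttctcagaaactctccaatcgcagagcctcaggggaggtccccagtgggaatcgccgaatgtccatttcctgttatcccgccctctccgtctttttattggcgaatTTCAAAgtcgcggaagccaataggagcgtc

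TTTGAA on either strand was sought in the window from 250 bases before to 50 after each start. Starts are those of RefSeq. For Cdk1 and Espl1 they lie inside the gene spans used for counting, so the matches nearest these starts lie inside those spans as well. It was found at 71 and 15 bases before the Cdk1 start, 27 before that of Espl1 and, as TTCAAA, 30 before that of Ckap2l, which held a second match, TTTGAA, at position 42 after its start. Of the 103 higher genes with sides apart, 80 matched a promoter and 13 (16.2%) held it. Ccna1 matched a promoter and was not among these 13, while Pgk2 and Ggn were. Foxm1 and Aurkb were not among the 13 either, but may be among the genes that matched no promoter. Of the 54 lower genes 43 matched and 8 (18.6%) held it. The share was 14.9% of the 6070 tested genes with a promoter and 17.9% of all 32851 promoters of the same length, so the motif was about as common near the higher genes as near genes at large. Without replicate 5 the shares were 20% of 100 matched higher genes and 11% of 82 matched lower genes. CCAAT was found in 40% of the higher, 60.5% of the lower and 43.4% of the tested genes, and CAGTT, the MYB core, in 53.8%, 41.9% and 44.3%. No motif contains another, both strands were read, and a match is a description of the letters and not of binding.

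For genes of chromosome segregation, the counts stand beside 11.2% of all tested genes over 2-fold higher and 12.3% lower. Espl1, which encodes separase, the protease that cuts cohesin at anaphase (chromosome 15, 102296266 to 102324357), had 32.2, 67.3 and 102 CPM in Aurka-high cells and 5.38, 6.75 and 15.3 CPM in Aurka-low cells. Its sides did not overlap (log2 ratio 2.73). In the same list of 20 tested anaphase promoting complex genes, the ubiquitin-conjugating enzyme gene Ube2c was higher with overlapping sides (log2 ratio 1.72). Anapc4, a scaffold subunit, was lower, at 0, 2.47 and 12.4 CPM against 16.1, 19.4 and 60.6 CPM, with sides apart and a log2 ratio of -2.92. In all, 3 of the 20 were over 2-fold higher and 4 lower, and the median was -0.020.

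Of 10 tested spindle checkpoint genes 0 were over 2-fold higher and 3 lower, with a median of -0.59. The median was 0.105 among genes with 500 or more counts. Mad2l1, whose protein holds the anaphase promoting complex in check, had 0, 9.89 and 40.6 CPM in Aurka-high cells and 0, 35.8 and 53.6 CPM in Aurka-low cells. Its partner gene Mad1l1 had a log2 ratio of -1.18 and Zwilch, of the kinetochore complex that recruits them, -1.16, and the sides of all 3 overlapped. Of 27 tested centromere and kinetochore genes 5 were higher and 5 lower (median 0.28). The largest were Spc25, of the microtubule-binding NDC80 complex (log2 ratio 2.12, and 2.88 without replicate 5), and the kinetochore motor gene Cenpe (2.03 and 2.84). The kinetochore gene Pmf1 had -1.63.

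Cenpe showed how much single cells weigh in these ratios. It had 7.07, 147 and 586 CPM in Aurka-high cells, with the lowest value in replicate 4 and the highest in replicate 1. In Aurka-low cells it had 24.5, 29.1 and 194 CPM, with the 194 CPM in replicate 5. Among 27 tested spindle motor and microtubule genes 5 were higher and 5 lower, and 6 and 2 without replicate 5 (median 0.18 with and 0.43 without). Ckap2l, a spindle protein gene (chromosome 2, 129268210 to 129297212), had 161, 211 and 521 CPM against 6.06, 40.5 and 68.0 CPM with sides apart (log2 ratio 2.77). It shares exon bases with Gm14024 on the opposite strand. Kif23, a motor of the central spindle, had 1.93 with overlapping sides, and Ska2, of a kinetochore complex that tracks microtubules, -2.40.

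**Figure D2:**
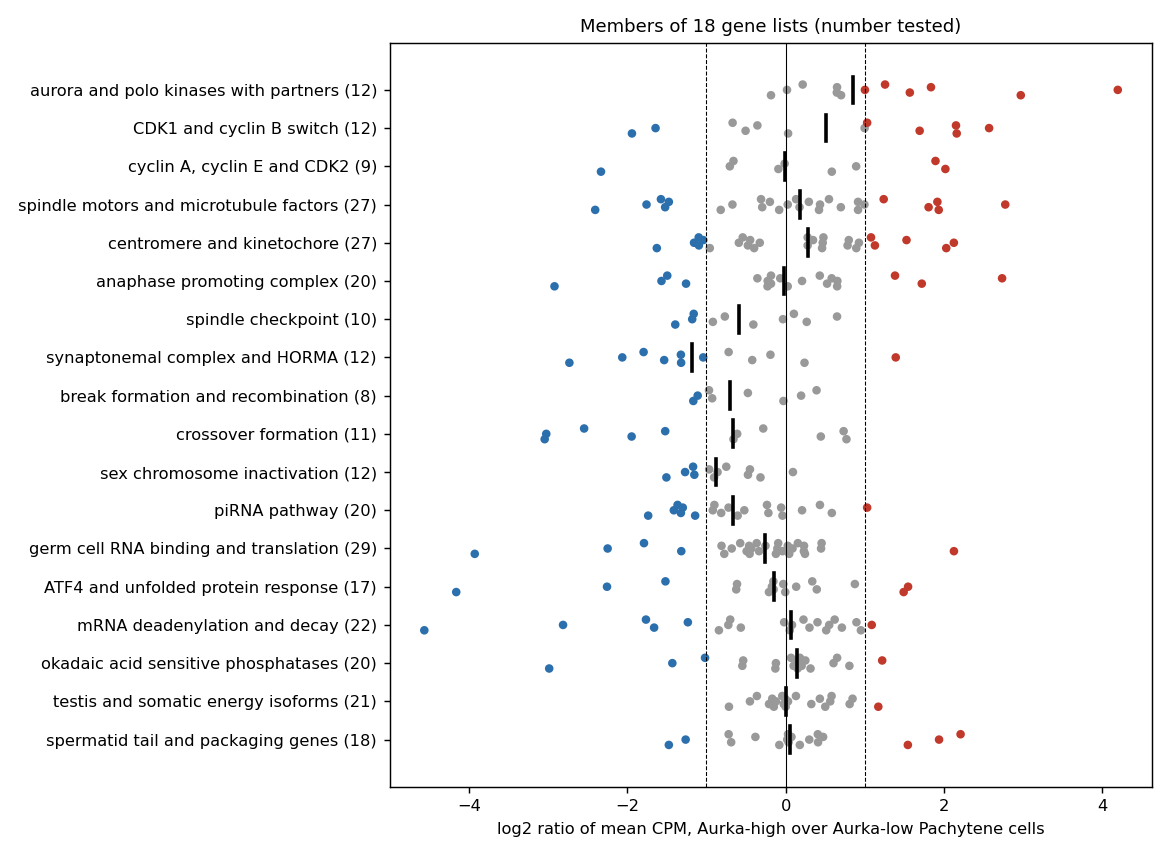
Each point is 1 tested gene of a list, placed by its log2 ratio of mean CPM in Aurka-high over Aurka-low Pachytene cells, with red over 2-fold higher, blue over 2-fold lower, grey between, and a black bar at the list median. Medians run from -1.18 for synaptonemal complex and HORMA genes to 0.85 for aurora and polo kinases with Aurka, which chose the sides, included, beside -0.035 over all 7910 tested genes.

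Lists of chromosome pairing and recombination genes had negative median log2 ratios, beside -0.035 over all tested genes. Of all tested genes 11.2% were over 2-fold higher and 12.3% lower. Of 12 tested synaptonemal complex and HORMA domain genes 7 were over 2-fold lower and 1 higher, and the list median was -1.18. Sycp1, the transverse filament of the synaptonemal complex (chromosome 3, 102818499 to 102936100), had 24.3, 65.4 and 133 CPM in Aurka-high cells and 154, 228 and 1230 CPM in Aurka-low cells. The sides were apart with and without replicate 5, which had the 1230 CPM (log2 ratio -2.73 and -2.23). Syce2 and Tex12, which encode parts of the central element, had -2.06 and -1.79. The sides of Syce2 overlapped only through replicate 5, at 6.06 CPM, and those of Tex12 overlapped with and without it.

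Among 8 tested genes of break formation and recombination 0 were higher and 2 lower, with a median of -0.70. That median was -0.251 among genes with 500 or more counts. Ankrd31, which directs the sites of meiotic breaks (chromosome 13, 96748272 to 96910039), had 46.3, 74.2 and 101 CPM against 102, 142 and 273 CPM, sides that were just apart (log2 ratio -1.17). Brca2, which acts in the repair of DNA breaks, had -1.11, and -0.48 without replicate 5, where it had 412 CPM. Of 11 tested crossover genes 0 were higher and 5 lower (median -0.66). Ccnb1ip1, an E3 ligase gene needed for crossovers, was detected in 3 of 9 Aurka-high cells, at most 4.82 CPM, and in 5 of 7 Aurka-low cells, at most 43.2 CPM. It shares exon bases with the RNA gene Rpph1 on the same strand. The MutS gene Msh5 had a log2 ratio of -2.54 and the nuclease gene Exo1 -3.02, or -1.80 and -1.93 without replicate 5.

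Sex chromosome silencing genes had a median of -0.88, with 0 of 12 higher and 4 lower, or 0 and 6 without replicate 5. H2ax, the histone that is phosphorylated over the silenced X and Y, had 51.4, 98.9 and 146 CPM in Aurka-high cells and 42.4, 233 and 435 CPM in Aurka-low cells. The lowest Aurka-low value again lay in replicate 5. Topbp1, which recruits the kinase that acts there, had a log2 ratio of -1.27, and Rad1, of the checkpoint clamp, -1.505, with sides that overlapped. The X-linked share of counts overlapped between the sides, as given above. Only 6 X-linked genes were tested, and 0 of them were over 2-fold either way.

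Small RNA and translation genes are given next, beside 11.2% of all tested genes over 2-fold higher and 12.3% lower. Of 20 tested piRNA pathway genes 6 were lower and 1 higher, with a median of -0.66. Piwil1, the pachytene piRNA-binding protein MIWI (chromosome 5, 128702524 to 128755474), had 47.8, 137 and 196 CPM in Aurka-high cells and 152, 311 and 530 CPM in Aurka-low cells. Without replicate 5, the lowest of these, all Aurka-low cells had 276 CPM or more and the sides did not overlap (log2 ratio -1.41 with and -1.54 without it). The Tudor domain genes Tdrd1 and Tdrd5, which organise piRNA granules, had -1.74 and -1.36, with overlap.

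Of 29 tested germ cell RNA binding and translation genes 1 was higher and 4 lower, and 1 and 2 without replicate 5 (median -0.25 and -0.14). Dazl was the lowest of them. Eif4g1, a scaffold of translation initiation, had 0, 1.31 and 8.68 CPM against 6.06, 14.5 and 36.4 CPM (log2 ratio -2.25), and its sides were apart without replicate 5. Msi2, an RNA-binding protein gene, was in the other direction, with 35.3, 121 and 182 CPM against 1.35, 19.6 and 59.7 CPM (2.13). In the ATF4 and unfolded protein list 2 of 17 were higher and 3 lower, with a median of -0.15. Psat1, a serine synthesis enzyme and known ATF4 target, had 7 summed counts in Aurka-high and 161 in Aurka-low cells, and its sides overlapped at 0 CPM. Its log2 ratio was -4.16, and -3.78 without replicate 5, and over summed counts the level was 42.4-fold lower with a counting interval of 20.1 to 107. The kinase gene Eif2ak2 had 1.55, or 2.20 without replicate 5.

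Among 22 tested genes of mRNA deadenylation and decay 1 was higher and 5 lower, yet the median was 0.067. Cnot3, a subunit of the CCR4-NOT deadenylase (chromosome 7, 3645268 to 3661109), had 0, 2.47 and 6.51 CPM in Aurka-high cells and 8.07, 20.8 and 78.8 CPM in Aurka-low cells, with sides apart. Its log2 ratio was -2.81, and -2.20 without replicate 5, which had the 78.8 CPM. Cnot3 shares exon bases with Leng1 on the opposite strand and Mir3572. The catalytic subunit genes Cnot6 and Cnot6l had -1.76 and -4.56, the second from 4 counts on the Aurka-high side and 100 on the Aurka-low side, and -3.69 without replicate 5.

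Subunits of the phosphatases that okadaic acid inhibits were mostly within 2-fold. Of 20 tested, 1 was higher and 3 lower, with a median of 0.15. Ppp2ca, the catalytic subunit of PP2A (chromosome 11, 52098681 to 52127778), had 0, 1.99 and 4.82 CPM in Aurka-high cells and 9.71, 28.7 and 36.4 CPM in Aurka-low cells, with sides apart with and without replicate 5 (log2 ratio -2.99). It shares exon bases with Gm24157 on the opposite strand and Mir3061. The PP1 catalytic gene Ppp1cb had -1.43 with overlap. Ppp2r2d, the regulatory B55 delta subunit of PP2A, was higher at 61.8, 140 and 169 CPM against 4.52, 33.7 and 194 CPM, the 194 CPM in replicate 5 (1.22 with and 1.97 without it).

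**Figure D3:**
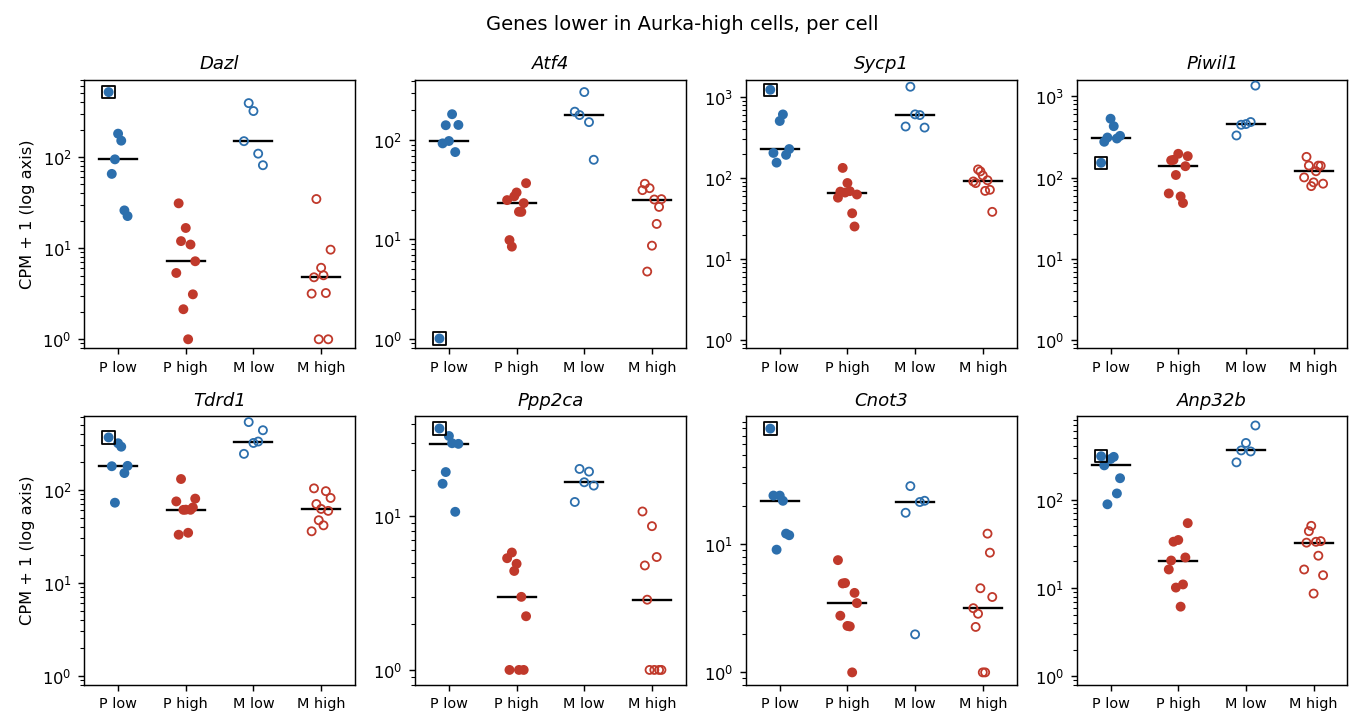
CPM + 1 per cell on a log axis for 8 genes that were lower in Aurka-high Pachytene cells, drawn as for the M phase genes with Pachytene (P, filled), Metaphase I (M, open), Aurka-low in blue, Aurka-high in red and a square around Pachytene replicate 5. Sides of Sycp1, Ppp2ca, Cnot3 and Anp32b do not overlap in Pachytene, and those of Dazl, Atf4, Piwil1 and Tdrd1 do.

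The largest differences with sides apart were taken by a fixed size rule, 12 in each direction with a mean of at least 20 CPM on the higher side. Beside Foxm1, Plk1, Aurkb, Ckap2l and Espl1, the higher genes were Itpk1 (log2 ratio 3.68), Peli2 (3.37), Nsmaf (3.32), Rasef (3.31), Neil3 (3.19), Idh1 (3.02) and C1qbp (2.94). Peli2, an E3 ubiquitin ligase gene of the Pellino family (chromosome 14, 48120823 to 48281575) and sharing exon bases with Gm6498 on the same strand, had 86.1, 230 and 272 CPM in Aurka-high cells against 5.43, 12.1 and 59.9 CPM. Neil3, a DNA glycosylase gene (chromosome 8, 53586867 to 53639065), had 14.1, 60.0 and 131 CPM against 0, 6.06 and 13.8 CPM. The inositol phosphate kinase gene Itpk1 had 21.2, 35.9 and 104 CPM against 0, 2.31 and 6.75 CPM. None of these 7 belongs to the M phase lists.

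Lower by the same rule, beside Ppp2ca, Anapc4, Cnot3 and Sycp1, were Casp8ap2 (log2 ratio -4.86), Baz1b (-3.68), Anp32b (-3.24), Ago2 (-3.01), Pnmal1 (-2.79), Drosha (-2.61), Fbxo34 (-2.56) and Sec23a (-2.54). Anp32b, a histone chaperone gene (chromosome 4, 46450902 to 46472657), had 5.14, 19.4 and 53.2 CPM in Aurka-high cells and 87.6, 243 and 309 CPM in Aurka-low cells. Casp8ap2, whose protein acts in histone transcript processing (chromosome 4, 32615451 to 32653265), had 5 counts in 3 of the 9 Aurka-high cells, at most 1.71 CPM, and 15.3, 28.1 and 70.2 CPM in Aurka-low cells. Ago2 and Drosha act in microRNA function and processing. Ago2 had 0, 1.14 and 15.9 CPM against 30.3, 38.0 and 73.5 CPM, and Drosha 0, 3.71 and 9.00 CPM against 9.45, 12.7 and 90.9 CPM. For Drosha the 90.9 CPM lay in replicate 5, and the log2 ratio without it was -1.88. That of Pnmal1 was -2.06 without it.

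**Figure D4:**
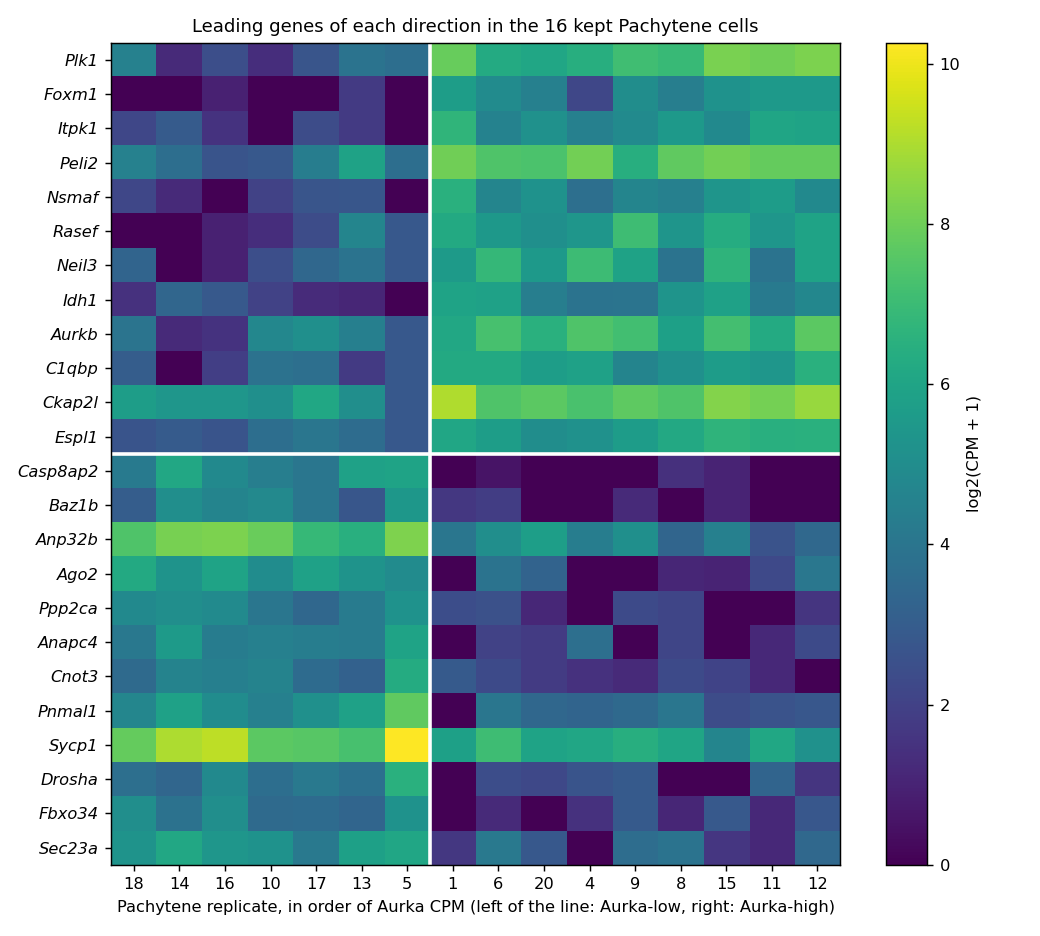
log2(CPM + 1) of the 12 leading higher genes (top) and 12 leading lower genes (bottom) in the 16 Pachytene cells, ordered from left to right by Aurka level, with white lines between sides and directions. Cells of a side resemble each other in these genes, which were chosen because their sides do not overlap, and Foxm1 is lowest on the Aurka-high side in replicate 4 at 3.53 CPM.

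Transcription factor genes other than Foxm1 differed less. Of 25 tested meiotic transcription regulators 3 were higher, Foxm1, Lin37 and Lin54, and 2 lower, with a median of -0.17. Without replicate 5 these were 2 and 3, with a median of -0.026. Nfyc, a subunit of the CCAAT-binding factor, had a log2 ratio of -2.10, and Tfdp1, the partner of E2F factors, -1.27. Of 9 tested histone variant and linker histone genes 4 were lower and 0 higher, or 2 and 1 without replicate 5. H3f3b, which encodes the replacement histone H3.3, had 212, 401 and 466.2 CPM against 443, 753 and 1983 CPM and overlapped in a narrow range (log2 ratio -1.41).

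Genes expressed for later stages were mixed over all 16 cells, but most tail and packaging genes were over 2-fold higher without replicate 5. Pgk2, the testis phosphoglycerate kinase (chromosome 17, 40207015 to 40208640), had 221, 345 and 413 CPM in Aurka-high cells and 58.8, 172 and 212 CPM in Aurka-low cells, with sides apart (log2 ratio 1.17). It was the only one of 21 tested energy genes over 2-fold either way. Tekt3 and Tekt4, which encode tektins of the sperm tail, had log2 ratios of 1.54 and 2.21, and Ggn, a testis gene placed on the acrosome list, 1.14. Sides were apart for Tekt3 and Ggn, and for Tekt4 without replicate 5. Of 18 tested spermatid tail and packaging genes 3 were higher and 2 lower with a median of 0.056, but 11 higher and 0 lower with a median of 1.33 without replicate 5. Replicate 5 had the highest Acrv1, Smcp and Hmgb4 levels of the 16 cells. Summed over the 37 genes of the list, including those not tested, levels were 7666 to 8824 CPM in Aurka-high and 5663 to 7343 CPM in Aurka-low cells, which did not overlap. Of 18 acrosome genes 1 was higher and 1 lower, and 5 and 1 without it. The lower acrosome gene was Tex101, at 13.1, 56.0 and 95.2 CPM against 77.2, 207 and 957 CPM.

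Shares of counts from ribosomal protein and mitochondrial genes overlapped between the sides. Ribosomal protein genes held 2.93% to 4.75% of counts there (median 4.12%) and 4.32% to 6.73% in Aurka-low cells (median 5.52%), where the 4.32% lay in replicate 5 and the next value was 5.15% in replicate 17. Of 80 tested, 4 were over 2-fold lower and 0 higher, a smaller share than the 12.3% of all genes that were lower. Their median log2 ratio was -0.52, with 73 of 80 below 0 beside 4094 of 7910 over all tested genes. Mitochondrial genes held 0.0643% to 2.98% against 2.04% to 7.12%, and 6 of 10 tested were lower and 0 higher (median -1.36). The 0.0643% lay in Aurka-high replicate 4, and the next lowest cell, replicate 9, had 1.04%. Mitochondrial share is also a sign of RNA quality, and its part in the gene differences was not tested. Taking CPM over totals without both classes gave 838 genes over 2-fold higher and 1042 lower.

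Within the Aurka-high side the M phase genes varied together in part. Replicates 4, 6 and 20, at 545 to 585 CPM of Aurka, had 60.1, 82.8 and 35.9 CPM of Ccnb1 and 86.6, 76.6 and 65.5 CPM of Plk1. Replicates 11, 12 and 15, at 802 to 863 CPM of Aurka, had 344, 404 and 395 CPM of Ccnb1 and 260, 305 and 294 CPM of Plk1. Aurka level and Ccnb1 did not simply track each other, since replicate 1 had the lowest Aurka of the side and 367 CPM of Ccnb1. Over these 9 cells Spearman's rho with Aurka was 0.87 for Cdk1, 0.70 for Plk1, 0.57 for Ccnb1 and 0.22 for Aurkb, where replicates 4 and 6 had 173 and 152 CPM. Over all 16 cells, which share the split and library depth, the 5 highest rho of the tested genes were those of Ggn and Tekt4 (0.92 each), Hook2 and Ccna1 (0.91 each) and 1700003H04Rik (0.90). The 5 lowest were those of Pcgf5 (-0.89), Cog4, Btbd7 and Arpp19 (-0.88 each) and Atp5g3 (-0.87). These are descriptions over 16 cells and no test. Hook2, which encodes a linker of cargo to dynein, had 132, 307 and 458 CPM against 6.75, 66.6 and 132 CPM. Pcgf5, of a Polycomb complex, had 12.0, 26.1 and 53.5 CPM against 57.6, 103 and 174 CPM.

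The Metaphase I libraries share no cell with the Pachytene ones and were not used to choose the sides above. The same limits on Aurka, Acrv1 and Clu gave 9 Aurka-high and 5 Aurka-low Metaphase I cells, with 1 cell between the thresholds and 5 left out. Of the 7910 genes, 1464 (18.5%) were over 2-fold higher and 1489 (18.8%) lower in that split, and 539 (6.81%) and 273 (3.45%) had sides that did not overlap. Of the 103 higher genes with sides apart in Pachytene, 93 (90.3%) were over 2-fold higher in Metaphase I too and 0 were over 2-fold lower, with a median log2 ratio of 2.30. For 69 of them, 67% of the 103 and 12.8% of the 539, the Metaphase I sides were apart as well. Aurka, which chose the sides in both sets, is 1 of the 103, the 93, the 69 and the 539. Of the 54 lower genes, 45 (83.3%) were lower and 0 higher, with a median of -1.65, and 15 (27.8% of the 54 and 5.49% of the 273) had sides apart. Among all 889 and 973 genes over 2-fold in Pachytene, 655 (73.7%) and 718 (73.8%) were over 2-fold the same way in Metaphase I, and 11 and 8 the opposite way.

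One Metaphase I cell, Aurka-low replicate 18, had 11.2% mitochondrial counts, where the other 13 cells of that split had at most 3.67%, and the highest Plk1 and Ccnb1 levels of its side, 50.6 and 68.4 CPM. Sertoli markers moved with the Metaphase I split, at 0 to 48.9 CPM in sum (median 5.09) in Aurka-high and 0 to 274 CPM (median 44.2) in Aurka-low cells, or at most 60.8 CPM without replicate 18. Clu had medians of 0 and 22.7 CPM. Of the 20 markers 9 had 0 counts in the 14 cells, Wt1 and Amh among them, and Sox9 had 3 counts. Their part in the Metaphase I differences was not tested. Without Metaphase I replicate 18, 28 of 54 lower genes (51.9%) and 79 of 103 higher genes (76.7%) had sides apart in both sets. The shares over all tested genes were 7.62% and 8.57%. Plk1 had 66.9, 248 and 347 CPM in the Aurka-high Metaphase I cells and 0.98, 2.67, 3.54, 8.30 and 50.6 CPM in the Aurka-low ones. Dazl had 0, 3.79 and 33.6 CPM and 80.3, 108, 148, 319 and 389 CPM, and Atf4 3.74, 24.2 and 35.4 CPM and 62.5, 151, 178, 193 and 305 CPM. For these 3 genes the Metaphase I sides did not overlap. Ccnb1 again overlapped, since Aurka-high Metaphase I replicates 4 and 5 had 22.7 and 44.8 CPM, and its log2 ratio was 4.16. Gene list medians had the same sign in both sets for aurora and polo kinases without Aurka (0.70 in Pachytene and 1.59 in Metaphase I), synaptonemal complex genes (-1.18 and -1.44), crossover genes (-0.66 and -1.17), sex chromosome silencing (-0.88 and -1.497) and the piRNA pathway (-0.66 and -1.47). The sign differed for centromere and kinetochore genes (0.28 and -0.32), cohesin (0.29 and -0.25), mRNA decay (0.067 and -0.26), the anaphase promoting complex (-0.020 and 0.18) and cyclin A, cyclin E and CDK2 genes (-0.012 and 0.36). It also differed for heat shock genes (-0.17 and 0.11), calmodulin and calcineurin (-0.057 and 0.34) and tubulins (0.060 and -0.18). The single Metaphase I cell between the thresholds, at 319 CPM of Aurka, had 20.7 CPM of Plk1, 31.1 of Ccnb1, 36.3 of Dazl and 140 of Atf4.

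**Figure D5:**
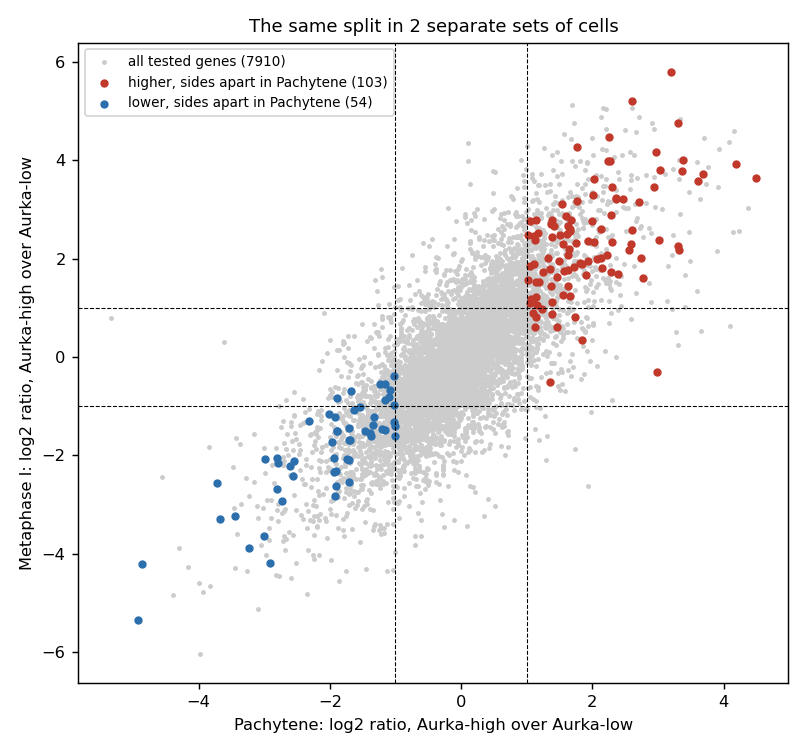
Each point is 1 of the 7910 tested genes, with its log2 ratio of Aurka-high over Aurka-low cells in Pachytene on the x axis and in Metaphase I on the y axis, dashed lines at 2-fold, and genes with sides apart in Pachytene in red (103 higher) and blue (54 lower). Of the red genes 93 lie above the upper dashed line and of the blue genes 45 lie below the lower one. Aurka, which chose the sides in both sets, is among the red genes.

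The comparison is limited by 16 cells of unknown animals, and depth per cell leaves genes under about 20 CPM to a few counts in the shallow cells. Which animals, culture plates or library pools the 2 sides came from cannot be told apart from the split.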

How the data were processed

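Single cells were measured with 1 deposited table of raw counts for 55492 genes and 40 cells, 20 Pachytene and 20 Metaphase I. The counts were made by the authors with UMI-tools, STAR and featureCounts on GRCm38, per the submitters' processing notes. The sources used here state neither the strand setting, nor the annotation release, nor if counts are molecules or reads, so genes that overlap on opposite strands are uncertain. 0 columns belonged to no sample.

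Each count was divided by the total of its cell to give CPM. The 7910 genes with 100 or more counts over the 16 kept Pachytene cells were compared by log2 of the ratio of mean CPM with 1 CPM added, each cell weighing the same. Cells are not replicates and the sides were chosen by a measured level, so no test was made. Exact binomial intervals on summed counts are at the 95% level and cover counting error only. No doublet caller was run. No pair of the 16 kept Pachytene cells agreed within sampling noise over the tested genes: the lowest chi-square per degree of freedom was 4.361. Members and all 35 gene lists (813 entries, 812 matched) were chosen with earlier results of these data known. Genes named are the 5 markers, the 12 largest log2 ratios in each direction with sides apart and 20 CPM or more on the higher side, up to 3 members of each list, all members of the aurora and CDK1 lists, and the 5 highest and 5 lowest Spearman rho with Aurka. Gene models without a name, mitochondrial and ribosomal protein genes were left out of the 12. Other genes named are checks of cell type, share exon bases with a named gene, or are Lin37 and Lin54, the other higher members of the list of Foxm1.

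Alternatives were another pseudocount, count minimum, Aurka split, Acrv1 limit, total, scaling (edgeR 4.0.16 and DESeq2 1.42.0 in R 4.3.3, for size factors only) and each cell left out. Python 3.11.15, pandas 2.3.3, NumPy 2.4.6, SciPy 1.17.1 and matplotlib 3.10.9 were used, and the steps were tested on simulated data.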

Additional observations from a re-analysis of the deposited data

Results flagged for a closer look

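Each value below lay far from the other cells of its side by Dixon's criterion, and is given with no cause. Of 200 groups of cells examined, 37 values met it, 19 of them in Pachytene replicate 5. The criterion is set to flag about 1 in 20 groups when values are normally distributed. Levels here are often skewed or rest on a few counts, as for Psat1 and Foxm1, and the groups share the same cells. The share flagged by chance in these data was not tested, so nothing is read from the number of flagged values.

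In Aurka-low replicate 5 these were 7264 detected genes, 7.12% mitochondrial counts, 0.121% X-linked counts, 16.3% of counts in the 10 most abundant genes, and the lowest level of Plk4, 6.06 CPM. The highest levels of the side were also there for Sycp1 (1230 CPM), Dazl (515 CPM), Brca2 (412 CPM), Pnmal1 (218 CPM), Cenpe and Ppp2r2d (194 CPM each), Ccnb1 and Incenp (188 CPM each), Exo1 (139 CPM), Cnot6l (121 CPM), Drosha (90.9 CPM), Cnot3 (78.8 CPM), Cdc25a (72.7 CPM) and Spc25 (42.4 CPM). In the other Aurka-low cells the highest levels were Peli2 at 59.9 CPM, Rasef at 24.2 CPM and Foxm1 at 2.31 CPM in replicate 13, and Rad1 at 44.3 CPM in replicate 16.

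On the Aurka-high side, replicate 4 had the lowest 1700003H04Rik (175 CPM) and the highest Ensa (189 CPM), Tex12 (70.7 CPM), Mad2l1 (40.6 CPM) and Anapc4 (12.4 CPM). Replicate 9 had the highest Rasef (136 CPM), Exo1 (13.0 CPM) and Psat1 (6.52 CPM), and replicate 6 the highest Tdrd1 (129 CPM) and Ccnb1ip1 (4.82 CPM). Replicate 1 had the highest Nsmaf (91.2 CPM) and X-linked share (0.0914%), replicate 12 the highest Wee1 (43.8 CPM), and replicate 8 the lowest H3f3b (212 CPM).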

How the results depend on the processing

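Not all named genes were followed over the settings. Of the 95 that were, Aurka among them, 82 were over 2-fold, and 80 of these kept their sign in every setting that gave them a value. That was all 29 settings for 45 of them and 20 or more for the other 35. Many were picked for large ratios in these same cells, so keeping the sign was favoured in advance. Of the 29 settings, 16 left out 1 cell. The median of 19 of 33 lists changed sign in at least 1 setting. Without the Acrv1 and Clu limit, which adds the 4 cells left out to the Aurka-low side, Cdc25c had a log2 ratio of -0.38 and Wee1 of -0.053. In that setting Rasef, Tekt4 and Pgk2 kept their sign but fell to 0.566, 0.111 and 0.196. The counts of genes moved as well. Genes over 2-fold higher, 889, numbered 460 with a pseudocount of 10 CPM, 1616 and 377 with count minimums of 20 and 500, and 579 with a split at the median Aurka level. Genes over 2-fold lower, 973, numbered 513 with that pseudocount, 1828 and 245 with those minimums, and 2106 without the Acrv1 and Clu limit. Higher genes with sides apart, 103, numbered 18 with the median split, 204 with sides at 500 CPM or more and under 200 CPM, and 36 without the limit. Lower genes with sides apart, 54, numbered 34 with a minimum of 500, 8 with the median split, 182 with the wider gap, 5 without the limit and 99 with Acrv1 under 50 CPM. Leaving out 1 cell gave 808 to 1015, 833 to 1019, 102 to 154 and 51 to 99 in the same order, with 99 without replicate 5 and 93 without replicate 13. With the tested genes kept, an alternative chosen after seeing the data, replicate 5 gave 100. The comparison without Metaphase I replicate 18 was chosen then too. No paired analysis was possible because both sides are cells of 1 labelled group and the result comes from no test. Depth limits genes under about 20 CPM, since 1 count in replicate 5 is 6.06 CPM.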

Other observations

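Several gene groups outside the division and pairing machinery are given here as values. Nucleolar genes included 4 of 24 tested over 2-fold lower in Aurka-high cells and 1 higher, with a median log2 ratio of -0.052. Gnl3, the nucleolar GTPase nucleostemin, had -2.18, and Ncl, which encodes nucleolin, -1.84. Ncl had 309 CPM in replicate 5 and at most 49.9 CPM in the other Aurka-low cells, and without replicate 5 its log2 ratio was -0.63 and the list had 3 lower and 0 higher. Of 40 tested proteasome and ubiquitin genes 4 were lower and 0 higher (median -0.24), with the proteasome subunit gene Psma5 at -1.52. Heat shock and chaperone genes had 2 of 19 higher and 1 lower (median -0.17), with the germ cell HSP70 family gene Hspa1l at 3.28. Of 11 tested cohesin genes 1 was higher and 2 lower (median 0.29), with the core subunit gene Smc3 at 2.28. Condensin and topoisomerase II genes had 1 of 9 in each direction (median 0.17).

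The other lists were small or mostly within 2-fold. Tubulins had 2 of 7 higher with replicate 5 and 0 without it, and calmodulin and calcineurin genes had 0 of 9 in either direction. Of 27 tested genes abundant from pachytene to diplotene 3 were higher and 3 lower (median 0.031). Genes of preleptotene to zygotene had 1 of 6 lower (median -0.56), p53 and apoptosis genes 0 of 5, and immediate early genes 0 of 2, or 2 higher without replicate 5. A single spermatogonia marker, Id4, was tested and was lower (-1.87).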
